A study of Mus musculus with 4 samples.

Results

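The 32 genes described here encode proteins of complement, blood coagulation and fibrinolysis. They were chosen by symbol, with earlier results of these data known. All 32 were found among the 23420 gene symbols counted in hearts of wild-type C57BL/6J mice, an inbred strain. The series holds 4 libraries in 1 group, labelled male and 12 weeks old, with no treatment, no altered allele and no second group. Messenger RNA with poly(A) tails was sequenced from the apex of the ventricles, although the tissue label reads whole heart. Whether the libraries are from separate animals is not labelled, so the spread between libraries may in part be technical.

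Complement is a cascade of plasma proteases that marks surfaces for removal. The classical arm starts when C1q, with its proteases C1r and C1s, binds a target; the lectin arm starts through MASP proteases and the alternative arm through factors B and D. All arms cleave C3 and can end in the pore built from C5b to C9. Coagulation starts when tissue factor meets plasma factor VII, and plasmin, made by the activators tPA and uPA, dissolves the clot. Most circulating factors are made by the liver, while endothelial cells carry many of the regulators, and tissue macrophages are a major source of C1q.

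Depth was 10523709 to 15359296 gene counts per library. Levels are given as CPM, counts per 1000000 gene counts of the library, and 3 counts, taken as the limit that a count of 0 allows in a library, were worth 0.195 to 0.285 CPM. All 6 cardiomyocyte markers were above 1 CPM, with a sum of 83403 to 94252 CPM. Libraries 2 and 3 went against their label of sex. Xist, the RNA of the inactive X, had 5, 1897, 1806 and 19 counts in libraries 1 to 4 and the Y-linked Ddx3y had 341, 0, 1 and 437. Immediate early genes, the rapid transcriptional response to stimulation, divided the libraries in the same way as a sum, with 562, 265, 339 and 543 CPM over 14 genes. Fosb, Egr2 and Myc did not follow this order, and Myc was highest in library 3. The test of spread given below called 5 of the 13 tested, against 0.445% of all tested genes. Libraries 1 and 4 were both above libraries 2 and 3 for 23.7% of all tested genes. The widest differences that rest on libraries 2 or 3 are therefore also given without them, after the test of spread.

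The promoters of 4 members are shown because these genes stand out below. C7 and Cfd had opposite orders between libraries, and C1qb and C1qc are neighbours on chromosome 4 with like CPM before any correction for length. The sequences, from RefSeq on GRCm38.p6, run 5′ to 3′ from 250 bases before to 50 after the annotated start, all but Cfd on the minus strand. C7 lies at chr15:5063724-5064023, Cfd at chr10:79890603-79890902 on the plus strand, C1qb at chr4:136886151-136886450 and C1qc at chr4:136892865-136893164. Capitals mark matches to the motifs described after the sequences.
C7: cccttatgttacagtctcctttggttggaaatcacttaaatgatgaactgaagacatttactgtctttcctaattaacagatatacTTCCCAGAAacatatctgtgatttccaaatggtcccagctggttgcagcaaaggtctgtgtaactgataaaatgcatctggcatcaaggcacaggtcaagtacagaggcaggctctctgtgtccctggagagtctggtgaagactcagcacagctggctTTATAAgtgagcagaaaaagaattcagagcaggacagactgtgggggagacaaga
Cfd: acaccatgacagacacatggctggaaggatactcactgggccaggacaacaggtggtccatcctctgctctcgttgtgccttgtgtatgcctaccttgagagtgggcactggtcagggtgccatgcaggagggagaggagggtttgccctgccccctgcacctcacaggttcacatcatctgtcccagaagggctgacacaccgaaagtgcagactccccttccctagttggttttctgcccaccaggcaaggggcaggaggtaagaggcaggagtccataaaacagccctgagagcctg
C1qb: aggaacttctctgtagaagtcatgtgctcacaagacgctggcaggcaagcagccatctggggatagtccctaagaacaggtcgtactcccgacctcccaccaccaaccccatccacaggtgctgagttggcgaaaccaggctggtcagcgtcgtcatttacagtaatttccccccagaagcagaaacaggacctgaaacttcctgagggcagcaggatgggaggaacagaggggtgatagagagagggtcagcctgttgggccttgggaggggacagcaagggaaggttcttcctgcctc
C1qc: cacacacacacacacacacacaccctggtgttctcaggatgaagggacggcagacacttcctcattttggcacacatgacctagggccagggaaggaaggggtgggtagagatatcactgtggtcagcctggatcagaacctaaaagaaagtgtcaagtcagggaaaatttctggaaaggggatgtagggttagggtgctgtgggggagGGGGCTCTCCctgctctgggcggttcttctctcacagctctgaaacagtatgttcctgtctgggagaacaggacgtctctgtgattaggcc

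The motifs, searched on both strands, were TATAA, the core of a TATA box; the NF-kappaB consensus; the core of an interferon response element, spelled GAAA, 2 bases of any kind, GAAA; and TTCNNNGAA, the palindrome bound by STAT factors. In C7 the palindrome began 164 bases before the start, a motif held by 8.3% of 32851 promoters of this length. TATAA in C7, which overlaps its own match on the other strand, began 4 bases before the RefSeq start and 37 bases before the GENCODE M21 start, which lies 33 bases further downstream; 24.9% of promoters hold TATAA. C1qc had an NF-kappaB match beginning 41 bases before its start (5.81% of promoters). Promoters were listed for 21 of the 32 members, with 24 starts between them. Of these, 5 held TATAA, 1 the NF-kappaB consensus, 1 the interferon core (3.44% of all promoters) and 3 the STAT palindrome. On the same strand and beginning 20 to 40 bases before the RefSeq start, TATAA was held by 1 of these, that of Tfpi, and by 3.52% of all promoters. A match describes letters in a window and not a bound site.

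Together the 32 members had 986 ± 56.9 CPM (SD, n = 4), with 958, 1060, 928 and 996 CPM in libraries 1 to 4. C3, the complement gene on which all arms converge, gave 26.8% of that sum. Of the members, 3 reached 100 CPM (C3, Serping1 and Vwf), 13 stood at 10 to 100 CPM, 10 at 1 to 10 CPM and 6 below 1 CPM. Counts favour long transcripts, so genes were ranked by CPM per kilobase of the union of their GENCODE exons. Serping1 led at 57.7 ± 2.39 CPM per kilobase, followed by C1qb (55.1 ± 4.74), C3 (51.3 ± 4.25) and C1qa (48.5 ± 3.28), values above those of 97.2% of the 23013 genes with a known length. The ranges of neighbours among these 4 overlapped, and in the whole order 24 of 31 neighbouring pairs had overlapping ranges. C1qc (26.9 ± 2.90 CPM per kilobase) and Thbd (18.5 ± 2.0) came next, by this length each apart from its neighbours in 4 of 4 libraries. With the longest coding transcript as the length, an alternative added after seeing the data, the first 6 kept their ranks. C1qc then rose to 43.2 ± 4.66 CPM per kilobase, near C1qa at 48.5 ± 3.28. The separation of C1qc from C1qa therefore rests on the length used.

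**Figure D1:**
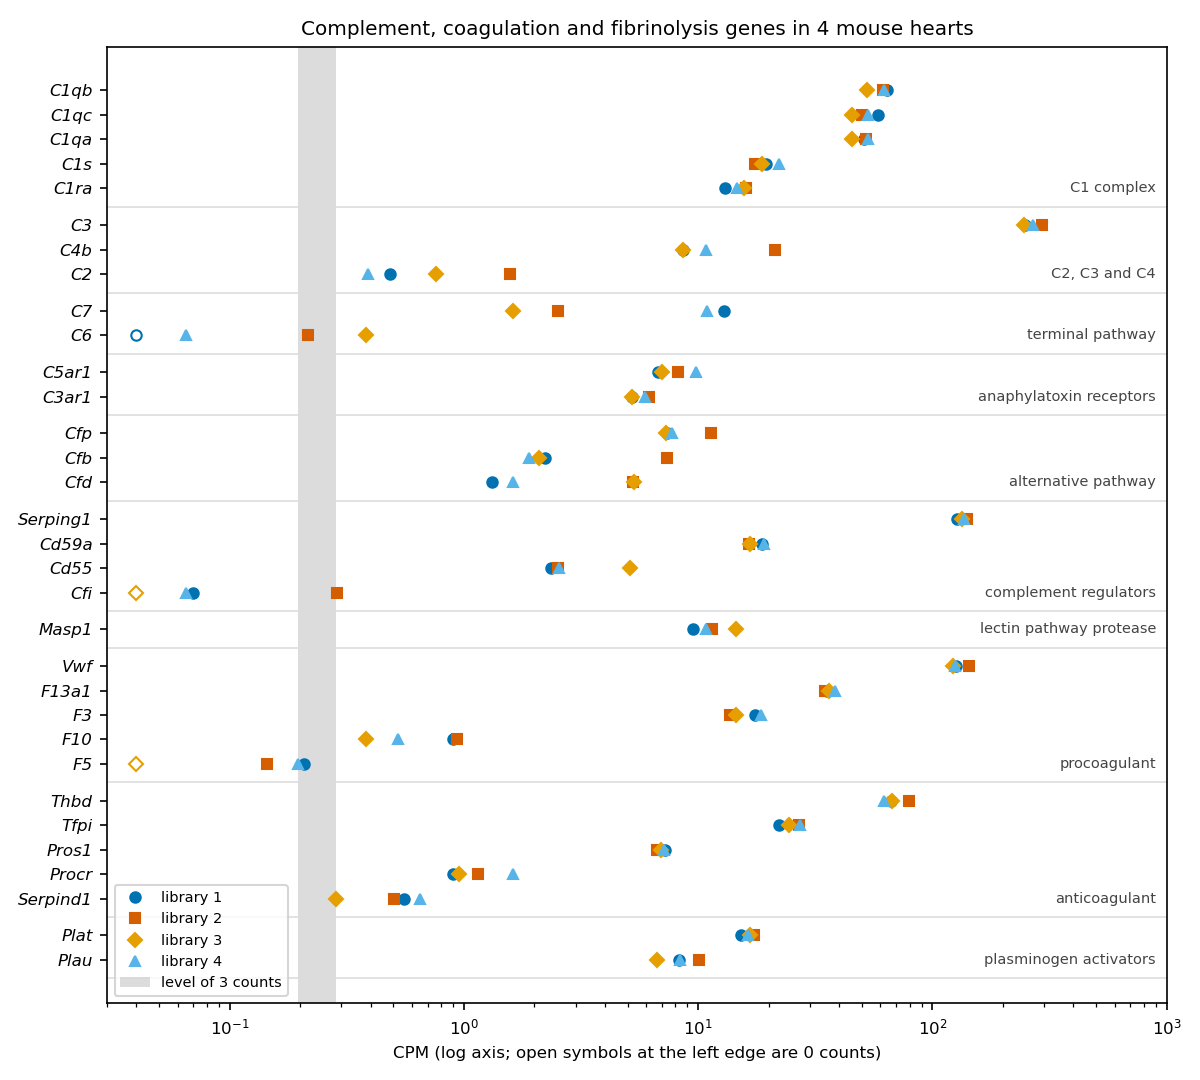
CPM of the 32 members in libraries 1 to 4 (log axis), grouped by role; the grey band is the level of 3 counts in the 4 libraries and open symbols at the left edge are 0 counts. C3, Serping1 and Vwf lie above 100 CPM in each library, while C6, Cfi and F5 lie near or under the band.

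The C1 complex starts the classical arm. Its recognition part, C1q, is assembled from A, B and C chains, whose genes lie side by side on the minus strand of chromosome 4 (C1qb at 136880129 to 136886187, C1qc at 136889804 to 136893065 and C1qa at 136895917 to 136898803, GENCODE M21 on GRCm38). C1qa had 50.9, 52.0, 45.5 and 53.3 CPM in libraries 1 to 4. C1qb had 64.1, 61.3, 52.5 and 62.0 CPM, and C1qc 58.8, 50.3, 45.4 and 53.1 CPM. All 3 chains were lowest in library 3, and their levels stayed within a narrow band. Within a library, C1qa stood at 0.88 times C1qb per kilobase of exon, a log2 ratio of -0.18 ± 0.06 (SD, n = 4), lower in 4 of 4 libraries. C1qb exceeded C1qc 2.05-fold per kilobase (log2 ratio 1.04 ± 0.07), and C1qa exceeded C1qc 1.81-fold (0.85 ± 0.12). These last ratios rest on the length used for C1qc, which is 1.931 kilobases as the union of exons and 1.203 as the longest coding transcript. With the latter C1qb exceeded C1qc 1.28-fold and C1qa exceeded it 1.13-fold.

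Macrophage markers are given beside C1q because macrophages make it. Their 11 counted genes summed to 262, 216, 240 and 276 CPM in libraries 1 to 4, led by Csf1r, Lyz2 and Cd163, against 174, 164, 143 and 168 CPM for the C1q chains together. The lowest library differed, being library 2 for the sum of the markers and library 3 for C1q. Mrc1, Cx3cr1 and Fcgr1 were, like C1q, lowest in library 3 and Aif1 in library 1, the other markers in library 2. In bulk tissue, fewer cells of a type and less RNA per cell cannot be told apart.

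The serine proteases of C1 were lower than its recognition part. C1ra had 13, 16.0, 15.7 and 14.6 CPM and C1s 19.5, 17.5, 18.7 and 22.1 CPM. Per kilobase C1ra stood at 0.80 times C1s, lower in 4 of 4 libraries (log2 ratio -0.32 ± 0.24, SD, n = 4). Both are uncertain, since 50.8% of the 50-base windows of C1ra and 39.0% of those of C1s, listed as C1s1 in GENCODE M21, also occur in transcripts of other genes, mainly the copies C1rb and C1s2. Serping1, the C1 inhibitor, which also restrains kallikrein and factor XII, had 127, 140, 134 and 136 CPM. It exceeded C1ra 11.6-fold and C1s 9.29-fold per kilobase, in 4 of 4 libraries each. Masp1, a protease of the lectin arm, had 9.51, 11.5, 14.4 and 10.8 CPM.

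C3 had 249, 293, 245 and 268 CPM in libraries 1 to 4, a 1.19-fold range. C4b, whose protein joins C2 in the classical convertase, had 8.60, 21.2, 8.65 and 10.8 CPM. Library 2 alone was high, with exact Poisson limits of 95% of 18.8 to 23.8 CPM. Such limits, here and below, cover counting error only and say nothing of the spread between animals or libraries; C4b was not called in the test of that spread given below. C3 exceeded C4b 25.4-fold per kilobase, in 4 of 4 libraries. Of the 50-base windows of C4b, 35.2% also occur in its near copy C4a, which was counted at 1, 1, 4 and 3. C2, the protease of that convertase, had 7, 22, 8 and 6 counts, also highest in library 2.

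The alternative arm was led by Cfp, properdin, which stabilizes its convertase. Cfp had 7.35, 11.4, 7.32 and 7.75 CPM. Cfb, factor B, had 2.22, 7.33, 2.09 and 1.89 CPM. Each was highest in library 2. Cfb lies next to C2 on chromosome 17 (34856374 to 34862518, against 34862604 to 34898265 for C2), and C4b lies at lower coordinates, 34728380 to 34743882. Exons of the model Gm20547 cover 79.5% of the exon bases of Cfb and, with those of Zbtb12, 46.9% of those of C2. Cfb exceeded C2 in 4 of 4 libraries, with C2 at 0.19 times Cfb per kilobase on 6 to 22 counts of C2. Cfd, the protease factor D that cleaves factor B and is also known as adipsin from fat cells, had 1.32, 5.24, 5.32 and 1.63 CPM. Libraries 2 and 3 were both above libraries 1 and 4, but Cfd was not called in the test of spread either. Fat cell markers beside it summed to 23.9, 22.0, 26.3 and 23.1 CPM over 7 genes, of which Cidea gave 22.8, 19.8, 22.5 and 21.6 CPM. The defining Adipoq had 0, 12, 4 and 3 counts and Plin1 5, 9, 13 and 6. By CPM, Adipoq and Plin1, like Retn at 0, 2, 3 and 0 counts, had the same pair of highest libraries as Cfd, all on few counts. Cidea, Cidec and Lep did not have this pair, and Ucp1 had 0 counts throughout. Cidec had 11, 7, 16 and 14 counts and was lowest in library 2, where Cfd was high. Lep had 0, 0, 4 and 1 counts. The part of fat cells in the level of Cfd was not tested.

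Receptors for the C3a and C5a fragments were present at low levels. C3ar1 had 5.20, 6.18, 5.23 and 5.92 CPM and C5ar1 6.73, 8.19, 7.03 and 9.77 CPM. C3ar1 stood at 0.43 times C5ar1 per kilobase, lower in 4 of 4 libraries.

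Inhibitors on cell surfaces differed in level. Cd59a, which blocks pore assembly, had 18.8, 16.5, 16.7 and 19.1 CPM. Cd55, which speeds the decay of convertases, had 2.36, 2.51, 5.13 and 2.54 CPM, highest in library 3 alone. Cd55 stood at 0.06 times Cd59a per kilobase of exon and 0.12 times per kilobase of the longest coding transcript, lower in 4 of 4 libraries. Of the 50-base windows of Cd55, 15.5% also occur in other genes, mainly its copy Cd55b; the entry Daf2 was counted at 0. Cfi, the plasma protease that degrades C3b and C4b, had 1, 4, 0 and 1 counts.

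The terminal pathway was nearly empty apart from C7. C6 had 0, 3, 4 and 1 counts. C7 had 185, 35, 17 and 167 counts, or 12.8, 2.51, 1.62 and 10.9 CPM. Libraries 1 and 4 were high and libraries 2 and 3 low, with no overlap, 7.95-fold between the highest and the lowest. C7 (chromosome 15, 4988762 to 5063740) shares none of its 50-base windows with other genes. Of the other pore genes, C8a, C8b and C9 had 0 counts in all 4 libraries, C8g had 20, 18, 8 and 28, and Hc, which encodes C5, had 0, 0, 0 and 1.

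Each gene was then asked whether it spread more between libraries than genes of like abundance. The test was edgeR's quasi-likelihood fit with an intercept alone, in which a gene's variance is divided by the fitted trend. It covered 12358 genes whose mean reached 1 CPM, and a Benjamini-Hochberg adjusted p under 0.05 over all of them was called. It called 1 of the 26 tested members, against 0.445% of all tested genes. That member was C7, with a variance ratio of 41.6 (adjusted p = 0.0169, edgeR). The other 6 members fell below the limit on abundance and were not tested. Of the 25 members tested and not called, C4b had a ratio of 17.8 (adjusted p = 0.114), Cfb 14.6 (0.163) and Cfd 14.4 (0.167), all edgeR. At an unadjusted p under 0.05 there were 4 members, those just named, against 6% of tested genes. The median ratio was 1.46 for tested members and 0.852 for all tested genes.

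**Figure D2:**
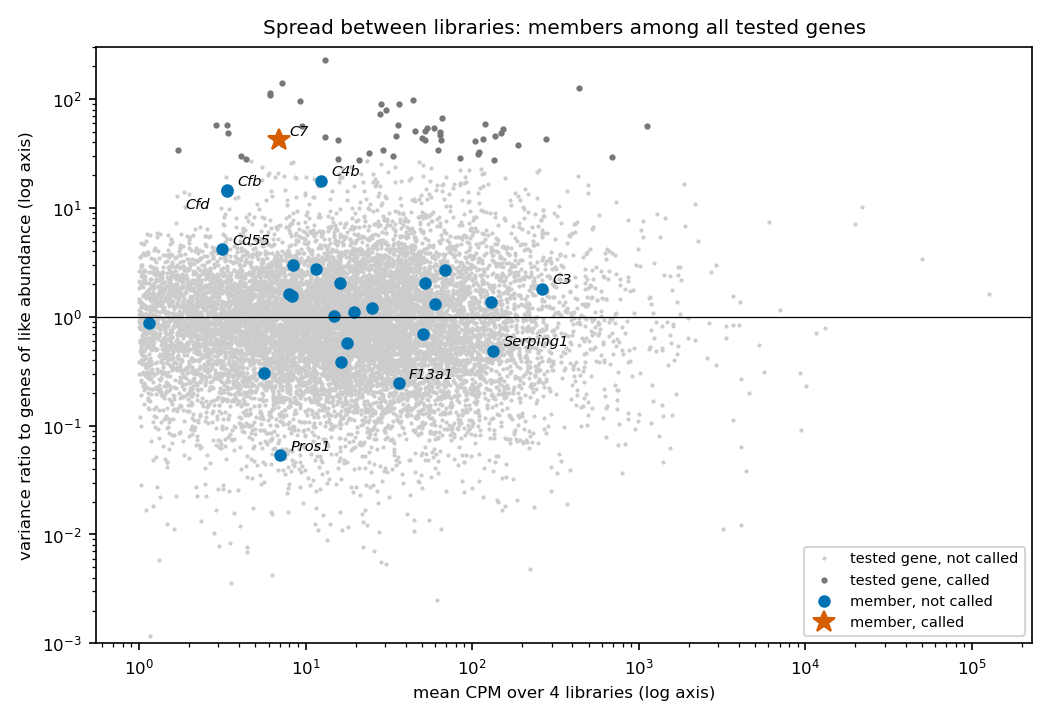
Variance ratio of each of 12358 tested genes to the trend for its abundance (log axis) against its mean CPM over 4 libraries (log axis). C7, the star at a ratio of 41.6, is the called member, and C4b, Cfb and Cfd lie next below it at 14.4 to 17.8.

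The variance ratio of C7 was about as large without either one of libraries 2 and 3, at 48.2 without library 2 (adjusted p = 0.00964, edgeR) and 39.5 without library 3 (adjusted p = 0.0627, edgeR, not called). In libraries 1 and 4 alone, a setting chosen after seeing the data, it was 2.11 (adjusted p = 0.957, edgeR). The high ratios of C4b and Cfb rested on library 2, without which they fell to 1.23 and 0.178. Likewise the ratio of Cfp fell from 3.0 to 0.0336 without library 2 and that of Cd55 from 4.17 to 0.0363 without library 3, neither being called in any case. C2, which was not tested, had a mean of 0.804 CPM with all libraries and 0.546 CPM without library 2. The ratio of Cfd fell to 0.421 in libraries 1 and 4 alone. C7 was high in the same libraries, 1 and 4, as Ddx3y and the sum of the immediate early genes. Cfd was high in the same libraries, 2 and 3, as Xist. Because this sum and the sex-linked genes divide the libraries in the same way, stimulation and sex cannot be told apart here. Their part in C7 and Cfd was not tested. Fibroblast markers, given because fibroblasts can make complement proteins, summed to 1018, 1036, 929 and 1018 CPM over 10 genes, and epicardial and mesothelial markers to 5.27, 6.83, 5.61 and 5.27 CPM.

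**Figure D3:**
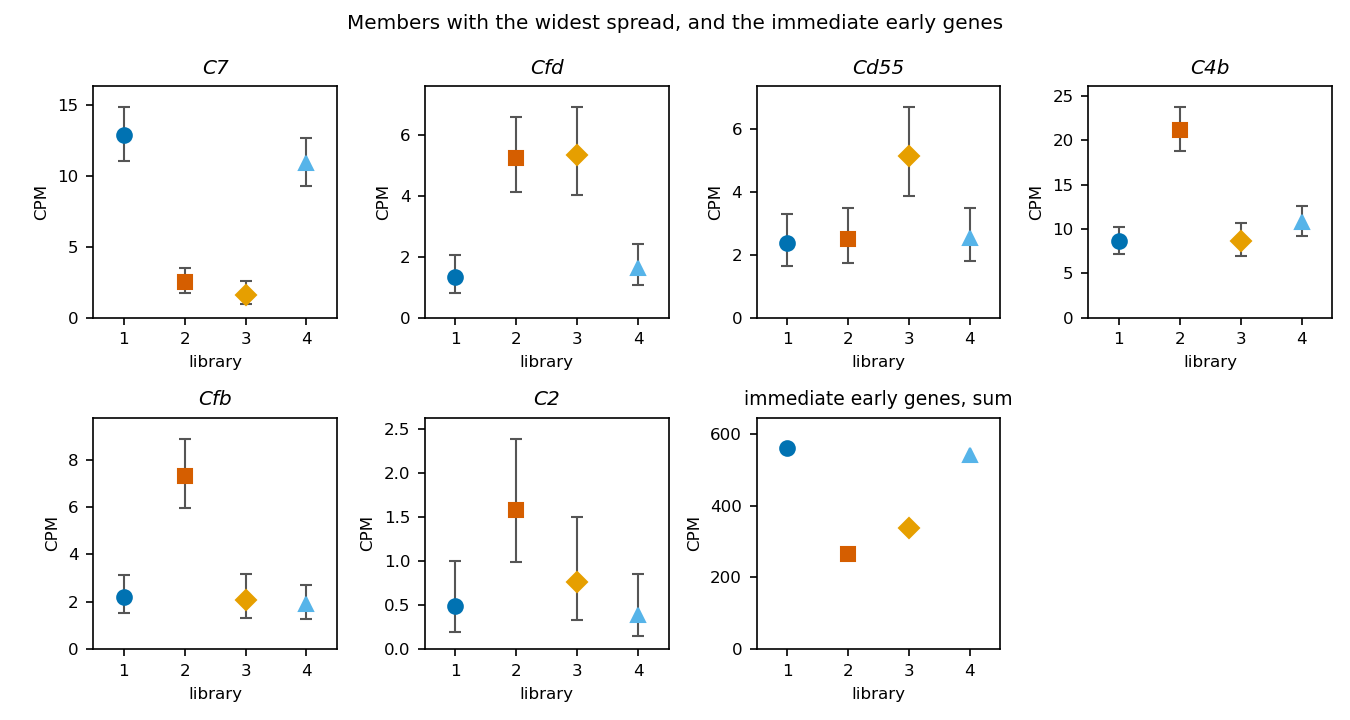
CPM in libraries 1 to 4 of the 5 tested members whose highest library was at least 2 times the lowest and of C2, chosen after the values were seen, with exact Poisson limits of 95% (counting error only) as bars, and of the summed immediate early genes, without limits. C7 is low and Cfd high in libraries 2 and 3, Cd55 is high in library 3, and C4b, Cfb and C2 are high in library 2.

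The number of members called moved with the settings, and the share of all tested genes called moved with it. It was 4 with no filter on abundance (1.48% of all tested genes), 3 by DESeq2's dispersion outliers (1.04%), and 0 with a prior that did not allow for outlying genes (0.0809%), without library 3 (0.315%) and in libraries 1 and 4 alone (0.0486%). For these counts of 0 by edgeR, 4, 4 and 2 members had an unadjusted p under 0.05. The share of all tested genes at that level was not taken in these settings, so these 3 counts cannot be set against it. It stayed at 1 with median-of-ratios factors (0.421%), plain totals (0.502%), a mean of at least 5 CPM (0.395%), limma (0.405%) and totals without the ribosomal gene Rn45s (0.478%). It was also 1 without library 1 (0.356%), library 2 (0.559%) or library 4 (0.404%).

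The coefficient of variation was under 10% for 12 of the 26 tested members, near the share of 52.3% among all tested genes. The medians were 10.4% for members and 9.59% for all tested genes. The smallest was that of Pros1, at 3.48%, followed by Serping1 at 4.14% and F13a1 at 4.2%. The highest library was at least 2 times the lowest for 5 members (C4b, C7, Cfb, Cfd and Cd55), or 19.2%, against 5.8% of all tested genes. Libraries 1 and 4 were both above libraries 2 and 3 for 7 of 26 members (C1qb, C1qc, C1s, C7, Cd59a, F3 and Pros1), against 23.7% of all tested genes. The opposite order held for 5 of 26 (C1ra, Cfd, Masp1, Thbd and Plat), against 15.6%. Library 2 was the highest for 11 of 26 members, against 28.5% of all tested genes, and the lowest for 5 of 26, against 30.7%.

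Among procoagulant genes, Vwf, the carrier of factor VIII and the tether for platelets, had 126, 143, 122 and 125 CPM. F13a1, the A subunit of the enzyme that crosslinks fibrin, had 35.4, 34.9, 36.1 and 38.3 CPM. F3, tissue factor, the trigger of coagulation, had 17.4, 13.7, 14.5 and 18.6 CPM. The highest library exceeded the lowest 1.17-fold for Vwf, 1.1-fold for F13a1 and 1.35-fold for F3. The coefficient of variation of F3 was 14.3%, above the median of 9.59% for all tested genes. F10, the protease of prothrombinase, had 13, 13, 4 and 8 counts, and F5, its cofactor, 3, 2, 0 and 3 counts. Platelet markers, given because platelets also store factor V, factor XIII and von Willebrand factor, summed to 15.3, 18.2, 14.7 and 16.9 CPM over 11 genes. Of these, 4 reached 1 CPM, led by Gp1ba, Pf4 and Itgb3.

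The anticoagulant members ranged widely in level. Thbd, thrombomodulin, which turns thrombin towards activating protein C, had 66.6, 79.7, 67.0 and 62.4 CPM. Procr, the endothelial receptor that presents protein C to it, had 13, 16, 10 and 25 counts, so that it stood at 0.03 times Thbd per kilobase, lower in 4 of 4 libraries. Tfpi, the inhibitor of tissue factor with factor VIIa, had 22.2, 26.9, 24.5 and 27.1 CPM. Tfpi stood at 0.73 times F3 per kilobase (log2 ratio -0.46 ± 0.27, SD, n = 4) and was lower in 4 of 4 libraries, while by plain counts it was 1.58-fold higher. Pros1, protein S, the cofactor of activated protein C, had 7.22, 6.68, 6.94 and 7.16 CPM and stood at 0.02 times its relative Gas6 per kilobase. Serpind1, heparin cofactor II, had 8, 7, 3 and 10 counts. Endothelial markers summed to 1355 to 1394 CPM over 10 genes, 1.03-fold between libraries.

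The plasminogen activators were Plat, which encodes tPA and is made by endothelium, and Plau, which encodes uPA. Plat had 15.3, 17.4, 16.7 and 16.3 CPM and Plau 8.26, 10.1, 6.65 and 8.40 CPM. Which of them was higher rested on the length. Plat stood at 0.75 times Plau per kilobase of exon union, in 4 of 4 libraries, but at 1.84 times per kilobase of the longest coding transcript, since its exon union is 6.241 kilobases and that transcript 2.525. Plau exceeded its receptor Plaur 4.36-fold per kilobase and 2.53-fold by the longest coding transcript.

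**Figure D4:**
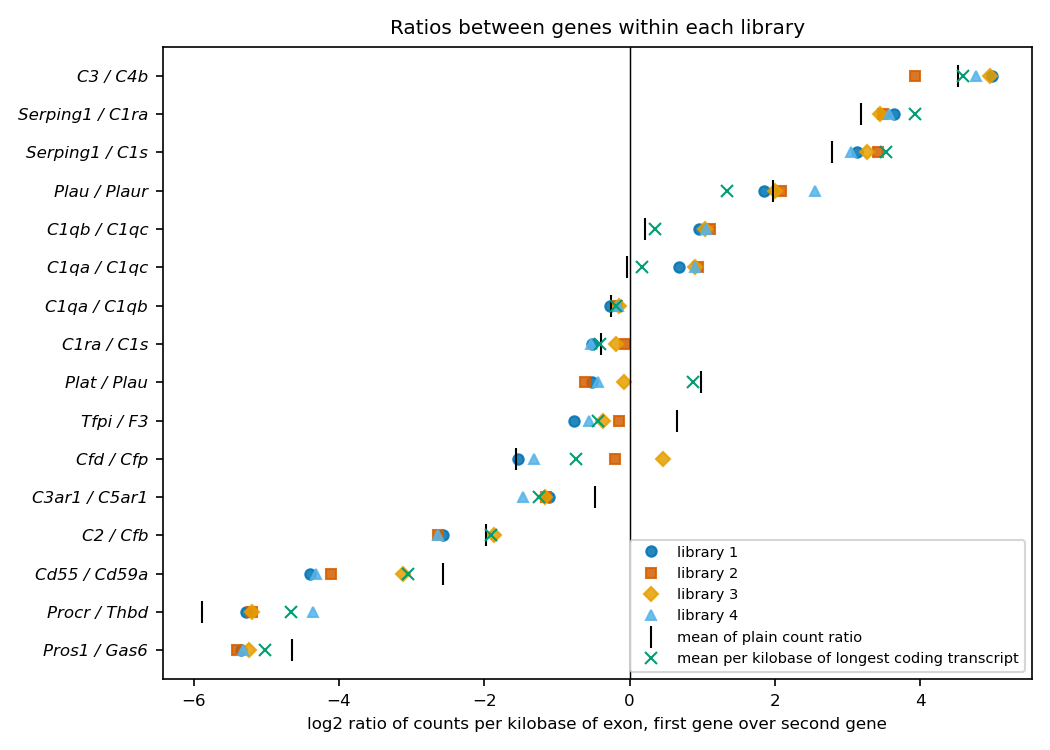
Log2 ratio of counts per kilobase of exon between the 2 genes of a pair in libraries 1 to 4, for 16 pairs with at least 40 summed counts in each gene; the bar is the mean ratio of plain counts and the cross the mean ratio per kilobase of the longest coding transcript. For Plat over Plau the cross and the bar lie on the other side of 0 from the points, for Tfpi over F3 and, narrowly, C1qa over C1qc the bar does, and Cfd over Cfp has points on both sides.

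In all, 22 pairs were compared within libraries. In 21 of them the direction was the same in 4 of 4 libraries, and each of these had p = 0.13 when the signs of the 4 ratios were flipped in every way (exact permutation, two-sided), the smallest that 4 libraries allow, and 0.131 after Benjamini-Hochberg adjustment over the 22 pairs. No pair could therefore pass 0.05. The other was Cfd over Cfp, with Cfd higher in 1 of 4 libraries (log2 ratio -0.65 ± 0.94, exact permutation p = 0.375). For 5 pairs a gene had too few counts for the size of the ratio to be read, and counts are given instead. Adamts13, the protease that cuts von Willebrand factor, had 1, 0, 0 and 0 counts against 1288 to 1990 for Vwf. Serpinc1, antithrombin, had 3, 1, 0 and 5 counts. The other 3 involved C6, Cfi and F5. Plain counts, which carry gene length, moved further ratios by over 1.5 times, among them those that follow. They gave 1.16 for C1qb over C1qc, 0.72 for C3ar1 over C5ar1 and 0.17 for Cd55 over Cd59a. They also gave 0.34 for Cfd over Cfp, 0.02 for Procr over Thbd and 0.04 for Pros1 over Gas6.

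Genes of the same pathways outside the members, taken from lists also set with earlier results known, divided into abundant and empty ones. Of 37 other complement genes with an entry, 16 reached 1 CPM and 10 had 0 counts in all 4 libraries. Clu, clusterin, an inhibitor of the pore and a chaperone, led with 592 ± 50.3 CPM (SD, n = 4), followed by the endothelial receptor Cd93 (101 ± 7.29 CPM), C1qbp, which acts mainly in mitochondria (71.2 ± 5.29 CPM), Vtn, vitronectin (39.5 ± 3.19 CPM), and Cr1l, the mouse convertase inhibitor Crry (23.3 ± 2.61 CPM). The genes at 0 included the lectins Mbl1, Mbl2 and Colec10 and the plasma inhibitor C4bp.

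Of 33 other coagulation genes, 11 reached 1 CPM and 11 had 0 counts in all 4 libraries. The crosslinking enzyme Tgm2 (428 ± 30.9 CPM), Gas6 (176 ± 8.07 CPM), the factor V and VIII cargo receptor Lman1 (69.1 ± 1.89 CPM), Anxa5 (64.0 ± 4.09 CPM) and the thrombin receptor F2r (34.6 ± 2.92 CPM) led. The prothrombin gene F2, F9, F11, the fibrinogen genes Fga and Fgg, the prekallikrein gene Klkb1 and the protein C gene Proc were at 0 counts. F7 had 14, 7, 3 and 12 counts and F8 15, 3, 4 and 19, both below the limit for testing. Liver markers, given because liver makes most of these factors, summed to 2.51 to 4.51 CPM over 12 genes, with Alb at 0 counts in all 4 libraries and Ahsg alone above 1 CPM.

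Of 13 other fibrinolysis genes, 8 reached 1 CPM and 3, among them the plasminogen gene Plg, had 0 counts in all 4 libraries. Lrp1, a receptor that clears proteases bound to inhibitors, led at 557 ± 48.7 CPM. Anxa2 had 69.5 ± 6.04 CPM, Clec3b 46.2 ± 7.56 CPM and S100a10 30.9 ± 5.09 CPM. In edgeR's spread test 0 of 16 tested complement genes and 0 of 11 tested coagulation genes outside the members were called, also 0 by limma, as dispersion outliers of DESeq2 and at an unadjusted p under 0.05. The median variance ratios were 1.20 for the other complement genes, 1.12 for the other coagulation genes and 3.04 for the other fibrinolysis genes, against 0.852 for all tested genes.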

How the data were processed

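Per the labels' protocols, poly(A) RNA of ventricular apex was sequenced from one end without strand information. The deposited values are unnormalized read counts for each gene symbol. The submitters' processing notes list, with no role for any, HTSeq, edgeR, DESeq, Bowtie2, TopHat and TopHat2 2.0.10, and the build mm10. Which annotation and HTSeq mode were used is not given in the sources used here. In each file 5 closing rows name no gene and held 8.96 to 9.30% of listed reads, of which reads aligned to several places made up 8.13 to 8.48 percentage points; they were left out. Genes with near copies may therefore be undercounted.

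CPM used plain totals. The spread test used edgeR 4.0.16 in R 4.3.3 with TMM factors, a robust prior and an F distribution on 3 and 7.42 degrees of freedom. On simulated counts with 200 changed genes, it recovered 40.8% of 2-fold, 88% of 4-fold, 98.8% of 8-fold and 22.8% of 0.5-fold changes. A member that was not called may therefore still differ about 2-fold between libraries. Pair ratios added 0.5 to each count. Positions and exon lengths are from GENCODE M21, to which 98.3% of symbols matched. The members, gene lists, pairs and roles were chosen with earlier results of these data known. Named genes are the members, up to 5 leading and 5 called genes of each other pathway list, both genes of each pair, up to 3 leading genes of each marker list, and Xist and Ddx3y; other named genes, among them Adipoq, Plin1, Alb, C4a, Daf2, Ahsg, F7, F8, Hc, C8g, and pathway genes listed at 0 counts, were chosen after their values were seen. Some genes of these lists and their pairs are not reported here.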

Additional observations from a re-analysis of the deposited data

Results flagged for a closer look

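Of 81 values looked at (members, sums and pair ratios), 9 had 1 library whose gap to the nearest of the other 3 was a larger share of the whole range than Dixon's 95% critical value for 4 samples allows. Chance flags about 1 in 20 such groups, and values that share genes are not independent.

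Library 2 stood high for Cfb (gap share 0.939), Cfp (0.893) and the summed anticoagulant genes (0.874), with 97.5, 115, 99.7 and 99.0 CPM for the last in libraries 1 to 4. Library 3 stood high for Cd55 (0.935), for the summed cardiomyocyte markers (0.942) and for the log2 ratio of C2 to Cfb (0.908), which was -1.86 there against -2.64 to -2.57, and low for the summed fibroblast markers (0.83). Library 4 stood low for the log2 ratio of C3ar1 to C5ar1 (0.84), at -1.46 against -1.17 to -1.11. It stood high for that of Procr to Thbd (0.91), at -4.36 against -5.28 to -5.20. The flag of C2 to Cfb rests on 8 counts of C2 and 22 of Cfb in library 3. That of Procr to Thbd rests on 25 counts of Procr in library 4, against 10 to 16 elsewhere.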

How the results depend on the processing

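The count of members called for spread was 1 with the settings reported, and also with median-of-ratios factors, plain totals, a limit of 5 CPM, limma 3.58.1 or totals without Rn45s. Testing with no abundance limit gave 4 (C4b, C7, Cfb and Cfd) and DESeq2 1.42.0 gave 3 dispersion outliers (C4b, C7 and Cfd). Leaving off the robust option of the prior gave 0 (edgeR; 4 members at an unadjusted p under 0.05). Leaving out 1 library gave 0 to 1, the 0 being without library 3 (edgeR; 4 at an unadjusted p under 0.05), and libraries 1 and 4 alone gave 0 (edgeR; 2 at an unadjusted p under 0.05). The share of all tested genes at an unadjusted p under 0.05 was taken only with the settings reported (6%, edgeR). The adjusted p of C7 (edgeR or limma) ran from 9.4e-07 to 0.113 over the settings that kept at least 3 libraries. Pair ratios of plain counts reversed for C1qa over C1qc (log2 -0.039), Tfpi over F3 (0.66) and Plat over Plau (0.99), the last also with the longest coding transcript (0.88), and no other pair reversed under any setting run. The summed CPM of the members was 1130.4 without Rn45s in the totals, since the totals shrink, and 961 to 1005 when 1 library was left out. No paired analysis was possible because the labels give 1 group. Depth limits the members below 1 CPM, whose counts of 0 to 22 leave their differences between libraries loose.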
